A study of Rattus norvegicus with 6 samples.

Results

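Transcripts of 10 genes of matrix turnover, 7 matrix metalloproteinases (Mmp2, Mmp3, Mmp10, Mmp11, Mmp13, Mmp14 and Mmp19) and 3 tissue inhibitors of metalloproteinases (Timp1, Timp2 and Timp3), were followed in rat nucleus pulposus cells (NPCs). They were taken by symbol from the combined count table, where all 10 had a row among 20264. The libraries came from primary NPCs of the tail discs of male wild type Sprague-Dawley rats, grown with serum. In the TBHP group, the NPCs received tert-butyl hydroperoxide, an organic peroxide used to bring on oxidative stress and senescence, and in the TBHP+FGF21 group they received the same peroxide together with recombinant rat fibroblast growth factor 21. Each group had 3 libraries, and no library of untreated NPCs was analysed here, so the comparison asks how these transcripts stood with FGF21 against TBHP alone.

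Matrix metalloproteinases are zinc-dependent endopeptidases that cleave collagens, proteoglycans and other proteins of the extracellular matrix. Most are secreted as inactive proenzymes, are activated by removal of their propeptide, and are held in check by TIMPs, which bind their active site. In the intervertebral disc, loss of aggrecan and collagen from the nucleus pulposus is linked to an excess of such proteases over their inhibitors. Only transcripts were measured here, not the amount or activity of any protease.

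With FGF21 added to TBHP, transcripts of 5 proteases (Mmp2, Mmp3, Mmp10, Mmp13 and Mmp19) were on average 1.26 to 2.00 times as high as with TBHP alone, and those of the inhibitor Timp3 were 0.689 times as high. The higher protease levels were carried by replicates 1 and 3 of the TBHP+FGF21 group, while replicate 2 stood among or below the TBHP libraries. Each of these 6 genes had an unadjusted p under 0.05, and none passed the adjusted test over all genes with all 6 libraries. For Mmp14 and Timp1 the intervals of the difference included 0, Timp2 had few counts, and Mmp11 had none.

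The treatment labels of replicates 2 and 3 of the TBHP+FGF21 group name FGF22 and FGF23 in place of FGF21, whereas the treatment protocol and the study's methods name FGF21 for the whole group. The libraries of this group were also unlike each other. Replicate 2 had a mean Spearman correlation across genes of 0.996 with the 3 TBHP libraries and 0.990 with replicates 1 and 3 of its own group. A chi-square per gene put replicates 2 and 3 furthest apart within the group, at 44.4, with replicate 1 at 22.8 from replicate 2 and 22.9 from replicate 3. TBHP replicate 3 also correlated slightly better with the TBHP+FGF21 libraries (0.994) than with its own group (0.993). Its chi-square per gene was 21.1 and 23.3 from TBHP replicates 1 and 2. From TBHP+FGF21 replicates 1, 2 and 3 it was 15.3, 8.49 and 38.3, so that unlike libraries were found in both groups. Results are therefore given with all 6 libraries and without replicate 2 or replicate 3. Libraries held between 18277732 and 22426190 counts, and levels are given as CPM (counts scaled to a library of fixed size, after TMM normalization), with 3 counts corresponding to between 0.134 and 0.164 CPM. Levels of the nucleus pulposus and notochord markers were mixed. Tbxt, Noto and Shh had 0 counts, and Krt8 lay between 2.31 and 4.26 CPM. Col2a1 had 68 counts over the 6 libraries together (0.408 to 0.782 CPM), and Sox9 lay between 4.90 and 11.3 CPM. Among the higher ones were Foxf1 at 39.8 to 62.1 CPM, Pax1 at 211 to 385 CPM and Acan at 2506 CPM or more. Of the 12 macrophage markers, 6 (Ptprc, Adgre1, Mrc1, Cd163, Tyrobp and Fcgr1a) had 0 counts in every library. The summed level of the list was 32.2 to 38.2 CPM in the TBHP group and 26.8 to 32.9 CPM in the TBHP+FGF21 group. Most of this sum was Cd14, which alone was at 30.3 to 35.6 CPM and 25.0 to 30.5 CPM, so the sum follows that gene. In bulk libraries like these, fewer cells of a type and less RNA per cell cannot be told apart.

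The promoters of Mmp3, Mmp10, Mmp13 and Timp3 are shown because these genes carried the largest differences among the 9 genes with enough counts to test. The sequences are RefSeq promoter windows in build GRCr8, of which the 250 bases before the annotated transcript start are printed, 5′ to 3′ on the strand of the gene. Capitals mark the letters TGAGTCA or TGACTCA, the binding motif of AP-1 (dimers of Fos and Jun proteins), and TATAAA, the TATA box.
Mmp3 (chr8:12925031-12925280, plus strand): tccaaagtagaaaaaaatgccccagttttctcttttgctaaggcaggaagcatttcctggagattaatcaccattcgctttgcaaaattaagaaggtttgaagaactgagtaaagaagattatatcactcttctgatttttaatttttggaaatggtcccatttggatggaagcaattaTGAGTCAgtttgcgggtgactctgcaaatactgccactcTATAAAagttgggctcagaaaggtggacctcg
Mmp10 (chr8:12974457-12974706, plus strand): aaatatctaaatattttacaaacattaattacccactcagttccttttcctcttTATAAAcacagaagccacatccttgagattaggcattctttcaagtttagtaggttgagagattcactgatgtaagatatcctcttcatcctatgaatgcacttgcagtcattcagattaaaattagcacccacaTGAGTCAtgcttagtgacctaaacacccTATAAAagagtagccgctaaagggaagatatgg
Mmp13 (chr8:12782579-12782828, plus strand): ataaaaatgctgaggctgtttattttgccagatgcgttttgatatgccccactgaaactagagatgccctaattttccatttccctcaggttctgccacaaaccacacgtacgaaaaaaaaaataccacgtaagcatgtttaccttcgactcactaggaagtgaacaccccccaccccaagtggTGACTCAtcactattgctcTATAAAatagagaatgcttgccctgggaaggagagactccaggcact
Timp3 (chr7:19459559-19459808, minus strand): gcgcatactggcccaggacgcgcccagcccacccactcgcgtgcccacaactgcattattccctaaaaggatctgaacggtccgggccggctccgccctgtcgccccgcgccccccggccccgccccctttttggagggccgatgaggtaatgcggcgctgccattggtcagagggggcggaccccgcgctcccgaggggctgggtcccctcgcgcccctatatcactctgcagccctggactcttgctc

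Windows from 250 bases before to 50 bases after the start were found for 7 of the 10 genes, all except Mmp2, Mmp14 and Mmp19. Letters of AP-1 (TGAGTCA, or TGACTCA on the other strand) were found in 3 of the 7, at 71 bases upstream of the start in Mmp3, 61 in Mmp10 and 66 in Mmp13, and in 4.63% of all 33469 promoter windows. The same 3 windows held TATAAA downstream of the AP-1 letters, at 32, 33 and 47 bases upstream in Mmp3, Mmp10 and Mmp13, and 14.2% of all windows held TATAAA or TTTATA. In Mmp10, TTTATA and TATAAA also overlapped each other further upstream, at 198 and 196 bases from the start. The ETS letters AGGAAG, or CTTCCT on the other strand, were in the windows of Mmp3, Mmp13 and Timp1 and in 34.5% of all windows. The letters AACCACA or TGTGGTT, bound by RUNX factors, were found in that of Mmp13 alone, 150 bases upstream, and in 5.57% of all windows. None of these letters were found in the windows of Mmp11, Timp2 and Timp3. The printed part of Timp3 was 69.6% G or C, against 38.8% in Mmp3, 36% in Mmp10 and 44.4% in Mmp13. A match of letters is a description of the window, not a bound site.

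**Figure D1:**
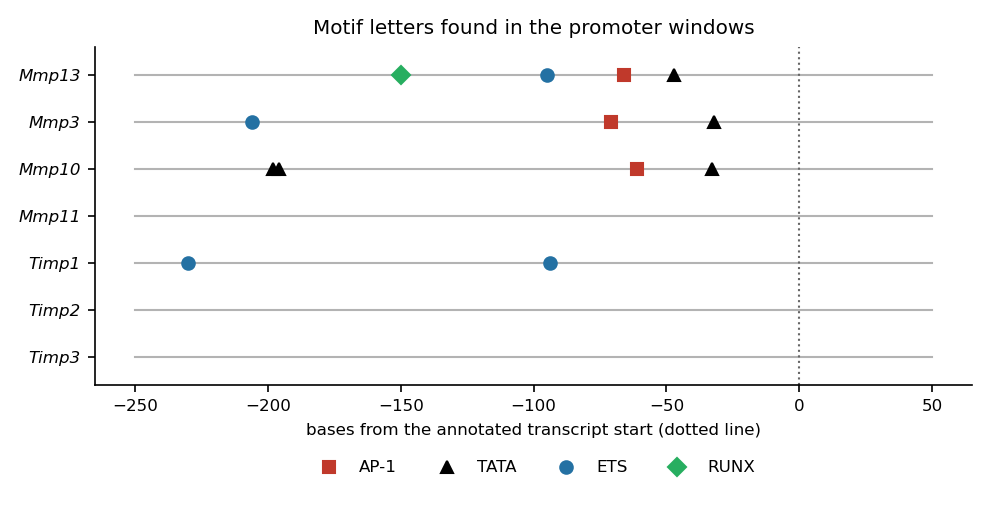
Positions of motif letters in the RefSeq promoter windows of the 7 genes found, with bases from the annotated transcript start on the horizontal axis and 1 line for each gene. Red squares (AP-1) at 61 to 71 bases upstream and black triangles (TATA) at 32 to 47 bases upstream are seen in Mmp13, Mmp3 and Mmp10, and no symbol is seen in Mmp11, Timp2 and Timp3.

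Mmp13, Mmp3 and Mmp10 are also close neighbours. On chromosome 8 of the RefSeq annotation (GRCr8), 10 Mmp genes follow each other without another protein-coding gene between them, in the order Mmp13, Mmp12, Mmp1b, Mmp3, Mmp1, Mmp10, Mmp8, Mmp27, Mmp20 and Mmp7. Only 3 of these had more than 5 counts over the 6 libraries together, namely Mmp3 with 3973, Mmp13 with 2506 and Mmp10 with 643. Transcripts of the cluster thus came from the collagenase and stromelysin genes that are described next, while Mmp8, the collagenase of neutrophils, and Mmp7, known as matrilysin, had no count.

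Mmp13 encodes collagenase-3, which cleaves type II collagen and aggrecan. Its level was 16.1, 15.1 and 16.3 CPM in TBHP replicates 1, 2 and 3, and 24.3, 14.3 and 31.5 CPM in TBHP+FGF21 replicates 1, 2 and 3. Replicates 1 and 3 of the TBHP+FGF21 group were above every TBHP library and replicate 2 was below all of them, so that the groups overlapped. The mean was 15.8 ± 0.620 CPM (SD, n = 3) with TBHP and 23.4 ± 8.64 CPM (SD, n = 3) with FGF21 added. The log2 fold change of Mmp13 was 0.56 in the quasi-likelihood test of edgeR, with a standard error of 0.22 (unadjusted p = 0.0238, Benjamini-Hochberg adjusted p = 0.553). The spread within the TBHP group was narrow, and nearly all the spread of Mmp13 lay among the FGF21-treated libraries.

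Mmp2 encodes gelatinase A, which degrades denatured collagen and type IV collagen and is itself activated at the cell surface by the Mmp14 product. Mmp2 stood at 323, 272 and 289 CPM with TBHP and at 449, 268 and 450 CPM with FGF21 added. Replicates 1 and 3 of the TBHP+FGF21 group were nearly equal and above the TBHP libraries, and replicate 2 was just under the lowest of them. The TBHP mean was 295 ± 25.9 CPM (SD, n = 3), against 389 ± 105 CPM (SD, n = 3) in the other group. The log2 fold change of Mmp2 was 0.40 (standard error 0.17, unadjusted p = 0.0360, adjusted p = 0.553 in edgeR's quasi-likelihood fit).

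Mmp3 and Mmp10 encode stromelysin-1 and stromelysin-2, close relatives that cleave proteoglycans and fibronectin and activate other proenzymes, including procollagenases. Mmp3 was at 17.8, 22.2 and 21.5 CPM in the TBHP libraries and at 40.4, 20.9 and 61.7 CPM in the TBHP+FGF21 libraries. Replicate 2 with FGF21 lay inside the TBHP range, and the other two lay well above it. The mean of 41.0 ± 20.4 CPM (SD, n = 3) with FGF21 was set against 20.5 ± 2.35 CPM (SD, n = 3) without it, a log2 fold change of 1.00, the largest of the 9 genes tested. Its standard error was 0.28 (unadjusted p = 0.00406, adjusted p = 0.553 in edgeR's quasi-likelihood fit). Mmp10 had the same order of the TBHP+FGF21 libraries, with 3.96, 3.35 and 3.09 CPM in the TBHP libraries and 5.68, 3.92 and 10.02 CPM in the TBHP+FGF21 libraries. Its replicate 2 with FGF21 fell just below TBHP replicate 1, the highest TBHP library, so that only this pair kept the groups from separating. The mean of Mmp10 was 3.47 ± 0.447 CPM (SD, n = 3) with TBHP and 6.54 ± 3.14 CPM (SD, n = 3) with FGF21 added. The log2 fold change was 0.92 (standard error 0.29, unadjusted p = 0.00830, adjusted p = 0.553 in edgeR's quasi-likelihood fit). Reads that matched both genes equally well were left out of the deposited counts, and what this took from the level of each of these paralogs was not tested.

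Mmp11, which encodes stromelysin-3, had 0 counts in all 6 libraries. This allows a level of up to 0.134 to 0.164 CPM per library by counting error, and no fold was computed.

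Mmp14 encodes MT1-MMP, a membrane-anchored collagenase that activates proMMP-2. Its level was 625, 575 and 673 CPM in the TBHP libraries and 697, 637 and 688 CPM in the TBHP+FGF21 libraries. All 3 libraries with FGF21 lay above TBHP replicates 1 and 2, but TBHP replicate 3 exceeded replicate 2 of the other group. The means of 624 ± 48.8 CPM (SD, n = 3) and 674 ± 32.5 CPM (SD, n = 3) gave an interval that included 0, with a log2 fold change of 0.11 (95% interval -0.10 to 0.32, unadjusted p = 0.277, adjusted p = 0.689 in edgeR's quasi-likelihood fit). Increases larger than 0.32 on the log2 scale were outside this interval, and an absence of change was not shown.

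Mmp19, a secreted protease of basement membrane components that is also found in healthy tissue, stood at 131, 118 and 135 CPM with TBHP and at 174, 120 and 191 CPM with FGF21 added. The pattern of Mmp2, Mmp3, Mmp10 and Mmp13 was seen again, with replicates 1 and 3 above every TBHP library and replicate 2 among them. The log2 fold change of Mmp19 was 0.34 (standard error 0.15, unadjusted p = 0.0408, adjusted p = 0.553 in edgeR's quasi-likelihood fit), on means of 128 ± 9.02 CPM (SD, n = 3) for TBHP alone and 162 ± 37.2 CPM (SD, n = 3) for both agents.

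The inhibitors differed among themselves. Timp3 encodes an inhibitor that is held in the matrix and also blocks ADAM and ADAMTS proteases, among them the aggrecanases. Timp3 was at 24.7, 28.2 and 29.6 CPM in the TBHP libraries and at 20.7, 24.2 and 12.1 CPM in the TBHP+FGF21 libraries. Every library with FGF21 was below every TBHP library, although replicate 2 with FGF21 and replicate 1 with TBHP were close. Timp3 was the only one of the 9 genes whose groups did not overlap, and 9.90% of all genes tested were separated in this way (4.90% higher and 5.00% lower with FGF21), so that the share among the 9 was close to the background. The mean of Timp3 was 27.5 ± 2.50 CPM (SD, n = 3) with TBHP and 19.0 ± 6.25 CPM (SD, n = 3) with FGF21 added. The log2 fold change was -0.54 (standard error 0.20, unadjusted p = 0.0198, adjusted p = 0.553 in edgeR's quasi-likelihood fit). An exact two-sided permutation test gave p = 0.1, the smallest that 3 libraries against 3 can give.

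Timp1, a secreted inhibitor of most soluble MMPs, was at 377, 382 and 343 CPM with TBHP and at 312, 387 and 326 CPM with FGF21 added. Here replicates 1 and 3 with FGF21 were the lowest of the 6 libraries and replicate 2 was the highest, the mirror image of Mmp2. The mean was 367 ± 21.3 CPM (SD, n = 3) with TBHP alone, against 341 ± 39.9 CPM (SD, n = 3) with both agents. The log2 fold change of Timp1 was -0.11 (95% interval -0.33 to 0.12, unadjusted p = 0.334, adjusted p = 0.726 in edgeR's quasi-likelihood fit). Timp2, the inhibitor that also tethers proMMP-2 to MT1-MMP for activation, was close to the limit of these libraries. It had 9, 21 and 9 counts in the TBHP libraries and 9, 27 and 7 counts in the TBHP+FGF21 libraries, that is 0.305 to 1.29 CPM. The highest values of Timp2 were in replicate 2 of each group, and the log2 fold change of 0.07 had a 95% interval from -1.11 to 1.25, which includes large differences in either direction. A row of few counts was also seen for Col1a2, which had 72 counts in all against 4692995 for Col1a1, with which it forms type I collagen. The reason for the low counts of Timp2, Mmp11 and Col1a2 was not tested.

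**Figure D2:**
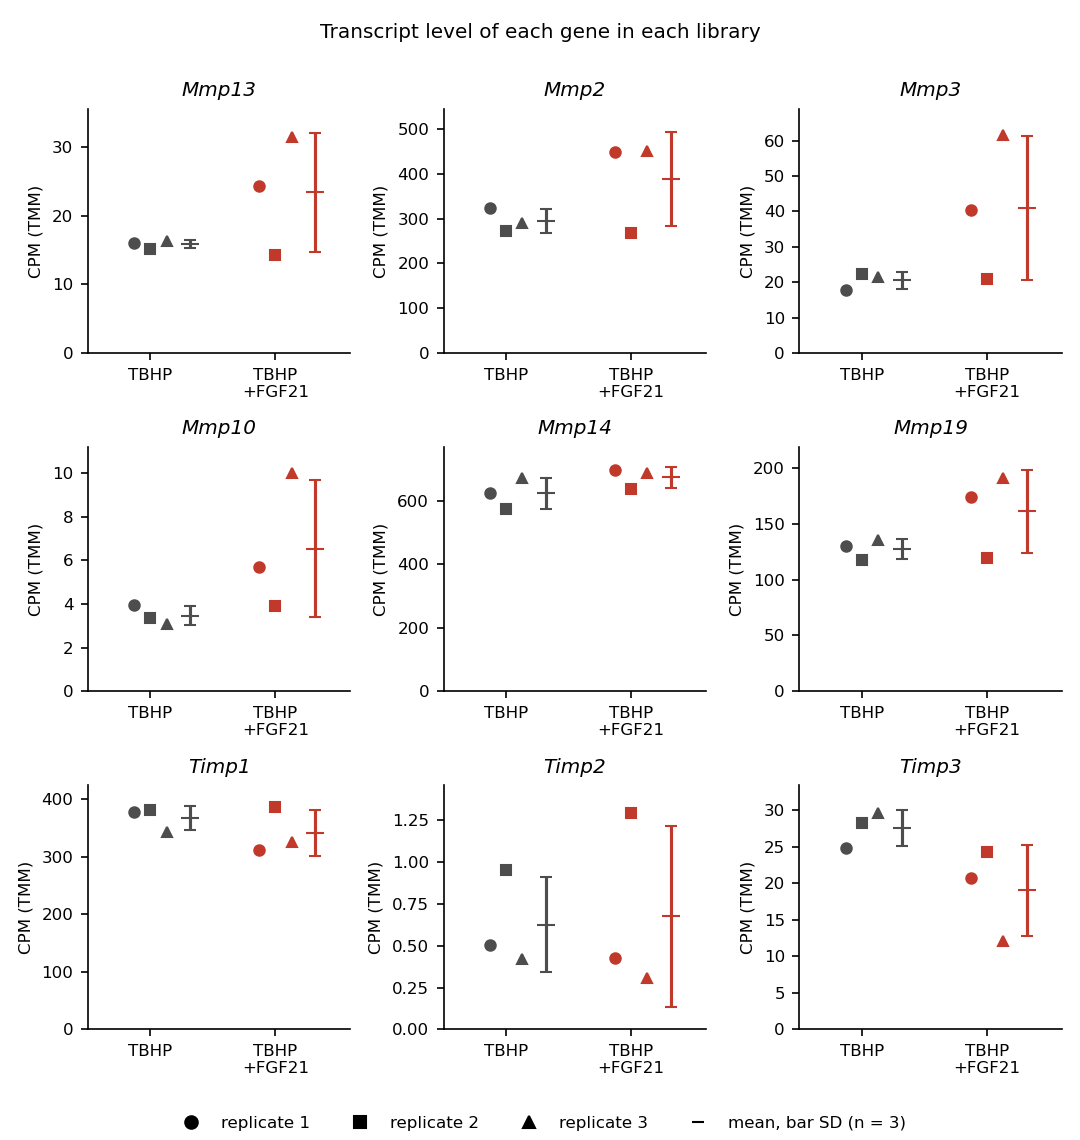
Transcript level in CPM after TMM scaling (vertical axis, from 0, with its own scale for each gene) of the 9 genes with counts in the 3 TBHP libraries (grey) and the 3 TBHP+FGF21 libraries (red), with symbols for replicates and the mean ± SD (n = 3) beside them. In Mmp13, Mmp2, Mmp3, Mmp10 and Mmp19 the red circle and triangle stand above all grey symbols and the red square does not, and in Timp3 all red symbols stand below the grey ones.

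Taking the genes as a list, 9 of 10 passed the filter on low counts. Of the 9, 7 had a positive log2 fold change and 2 a negative one, with a median of 0.34, against -0.01 for all 11426 genes tested. An unadjusted p under 0.05 was reached by 5 genes that were higher with FGF21 (Mmp2, Mmp3, Mmp10, Mmp13 and Mmp19) and by 1 that was lower (Timp3). Over all genes tested, 4.63% were higher and 4.29% lower at this threshold, 8.92% together. The 10 genes were chosen with earlier results of these data known, and most share an order of the libraries. The 6 are therefore not separate results, and their share is a description. The count of 6 became 4 without TBHP replicate 1 (4.41% of all genes in that fit), without TBHP replicate 3 (15.3%) or without TBHP+FGF21 replicate 1 (4.15%). It became 2 without TBHP replicate 2 (2.92%) and 1 without TBHP+FGF21 replicate 3 (2.96%), and was again 6 without TBHP+FGF21 replicate 2 (23.6%), so that the share of all genes also moved with the library left out. None of the 9 reached an adjusted p under 0.05 in edgeR's quasi-likelihood fit, against 0.00875% of all genes, which is 1 gene. That gene was Sirt1, whose counts differ between the deposited files. The exact two-sided permutation test of single genes gave p = 0.2 for Mmp10 and Mmp14, 0.3 for Mmp3 and Mmp19, and 0.4 for Mmp2, Mmp13 and Timp1.

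The order of the libraries was shared by most of these genes. In Mmp2, Mmp3, Mmp10, Mmp13, Mmp14 and Mmp19, that is in all 6 proteases with counts, replicates 1 and 3 of the TBHP+FGF21 group were above all TBHP libraries and replicate 2 was not. This arrangement was seen in 15.5% of all genes tested, and the opposite one, with replicates 1 and 3 below and replicate 2 not, in 14.4%, to which Timp1 belonged. As a description over 6 libraries that share these groups, Pearson's r of log2 CPM was 0.98 between Mmp13 and Mmp19, 0.97 between Mmp3 and Mmp13, 0.97 between Mmp2 and Mmp19, and 0.93 between Mmp3 and Mmp10. Timp3 ran against all 6 proteases with counts. Its r was -0.99 with Mmp10, -0.90 with Mmp3, -0.90 with Mmp13, -0.84 with Mmp19, -0.80 with Mmp2 and -0.55 with Mmp14. Among 9035 genes with at least 5 CPM on average, the profile most like that of Mmp3 was that of Ptpre (r = 0.998), followed by Nrk, Xdh, Plau (0.994 for Nrk, Xdh and Plau alike) and Vxn (0.991). For Mmp10 these were Olfml3 (0.993), Nkd2 (0.993), Fads2, Bcl2l11 and Acss2. For Mmp13 they were Maea (0.998), Sh3bp2, Lama5, Ap2m1 and Tgfbr3, with r no lower than 0.995.

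Leaving out libraries changed the calls. Without replicate 2 of the TBHP+FGF21 group, Mmp3 had a log2 fold change of 1.32 (adjusted p = 6.06e-05 in edgeR's quasi-likelihood fit). Likewise, Mmp10 was at 1.20 (adjusted p = 0.00446), Mmp13 at 0.83 (0.00119), Mmp2 at 0.62 (0.00167), Mmp19 at 0.52 (0.00520) and Timp3 at -0.74 (0.0156), all adjusted in the same edgeR fit. Thus 5 proteases rose and 1 inhibitor fell in these 5 libraries, where 7.50% of 11559 genes were called, 3.78% higher and 3.72% lower. Mmp14 at 0.16, Timp1 at -0.20 and Timp2 at -0.78 did not reach the threshold (adjusted p of 0.382, 0.261 and 0.386 by edgeR). The library left out here is the one nearest to the TBHP libraries, which narrows the spread of its group.

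Without replicate 3, in turn, the differences shrank, to 0.59 in Mmp3, 0.48 in Mmp10, 0.29 in Mmp13, 0.29 in Mmp2, 0.21 in Mmp19 and -0.29 in Timp3. Among these genes, Mmp3 alone kept an unadjusted p under 0.05 (edgeR, 0.0177), as did 341 genes of the whole table. Replicate 3 had the highest level of Mmp2, Mmp3, Mmp10, Mmp13 and Mmp19 and the lowest of Timp3 among the 6 libraries. A comparison chosen after seeing the data set replicate 1, the one whose treatment label names FGF21, alone against the 3 TBHP libraries, and 2.77% of 11752 genes had an adjusted p under 0.05 in it. Here Mmp3 was at 0.98 (adjusted p = 6.30e-05), Mmp2 at 0.61 (adjusted p = 0.00456) and Mmp13 at 0.62 (adjusted p = 0.0293) by edgeR, where the lone library is assumed to vary like the TBHP libraries. In the same fit, Mmp10 was at 0.72 (adjusted p = 0.137), Mmp19 at 0.45 (adjusted p = 0.0643) and Timp3 at -0.40 (adjusted p = 0.249). These values compare 1 library with 3 and describe that library.

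**Figure D3:**
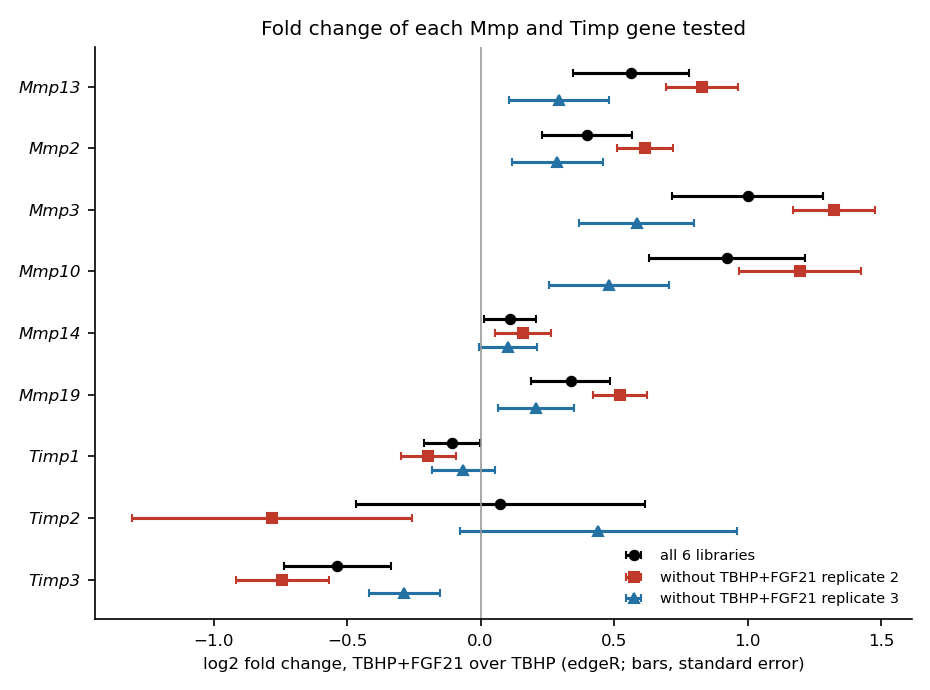
Log2 fold change of TBHP+FGF21 over TBHP (horizontal axis) for the 9 genes tested, by edgeR, with bars for the standard error, with all 6 libraries (black), without TBHP+FGF21 replicate 2 (red) and without replicate 3 (blue). The red points of Mmp3, Mmp10, Mmp13, Mmp2 and Mmp19 lie further right than the black ones and the blue points further left, while Timp2 changes sign.

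Proteases were also set against inhibitors within each library. These ratios are of reads, without correction for transcript length, and serve only to compare libraries. The summed CPM of the 6 proteases with counts over that of the 3 inhibitors was 2.77, 2.45 and 3.05 in the TBHP libraries and 4.17, 2.58 and 4.24 in the TBHP+FGF21 libraries. Replicates 1 and 3 with FGF21 were again above, and replicate 2 within, the range of TBHP. The mean ratio was 2.76 ± 0.303 (SD, n = 3) with TBHP and 3.66 ± 0.940 (SD, n = 3) with FGF21 added. Reads of Mmp14 made up 48.0% to 59.9% of the protease sum and reads of Timp1 92.0% to 96.3% of the inhibitor sum, so that these sums mostly follow those 2 genes and Mmp2. Mmp3 over Timp1 was 0.0472, 0.0581 and 0.0626 with TBHP and 0.129, 0.0540 and 0.190 with FGF21 added. Both ratios put replicate 2 with FGF21 among the TBHP libraries.

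**Figure D4:**
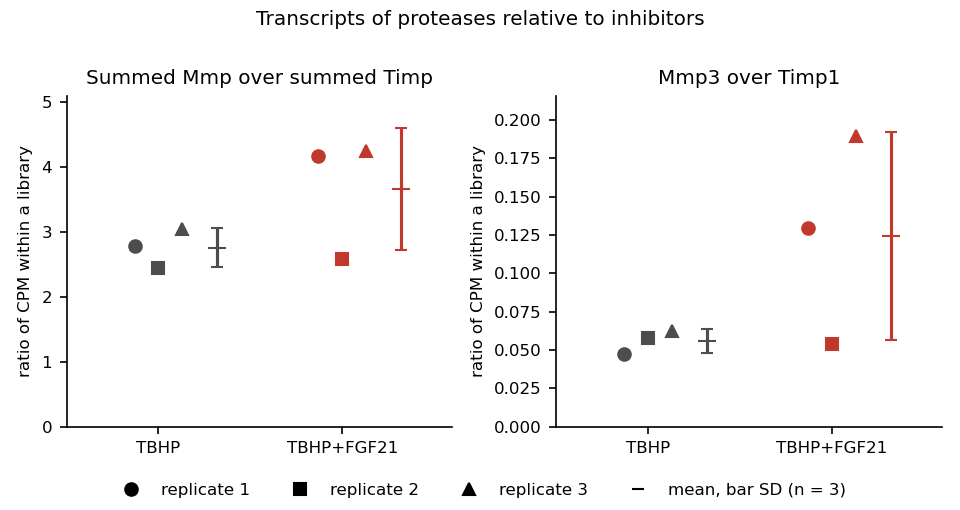
Ratio of summed Mmp to summed Timp CPM (left) and of Mmp3 to Timp1 CPM (right) within each library (vertical axes, from 0), with symbols for replicates and the mean ± SD (n = 3) beside them. TBHP libraries lie between 2.45 and 3.05 on the left, and TBHP+FGF21 replicates 1 and 3 lie at 4.17 and 4.24 with replicate 2 at 2.58.

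Of 17 further genes (16 other MMPs and Timp4), 16 had a row in the table, 5 of these had no count and 5 could be tested. All 5 (Mmp15, Mmp16, Mmp17, Mmp23 and Mmp24) had positive log2 fold changes with a median of 0.19, and none had an unadjusted p under 0.05. The highest of them in CPM, without correction for length, was Mmp23, at 43.9, 41.5 and 42.6 CPM with TBHP and 50.5, 44.1 and 51.7 CPM with FGF21 added, a log2 fold change of 0.19 (unadjusted p = 0.0670 in edgeR's quasi-likelihood fit). Mmp9, which encodes gelatinase B, had 34 counts in all 6 libraries together, too few to test.

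Genes that activate, anchor or clear MMPs were read next. Of 22 listed, 20 were tested, 13 with a positive and 7 with a negative log2 fold change (median 0.07). An unadjusted p under 0.05 was reached by 4 of the 20, all higher (4.63% of all genes tested were higher and 4.29% lower), and an adjusted p under 0.05 by none. Plau, the urokinase that converts plasminogen to plasmin, an activator of proMMPs, was at 108, 119 and 130 CPM in the TBHP libraries and at 184, 122 and 249 CPM in the TBHP+FGF21 libraries. This was the profile of Mmp3, and its log2 fold change was 0.64 (unadjusted p = 0.00682, adjusted p = 0.553 in edgeR's quasi-likelihood fit). Plat, the tissue-type plasminogen activator, stood at 40.0, 42.0 and 41.8 CPM with TBHP and at 57.5, 43.0 and 62.5 CPM with FGF21 added, with no overlap of the groups. Its log2 fold change was 0.40 (unadjusted p = 0.00896 by the same edgeR test).

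Inhibitors were among these genes as well. Serpine2, a serpin that blocks urokinase and thrombin, was at 1557, 1570 and 1598 CPM with TBHP and at 2388, 1536 and 2909 CPM with FGF21 added (log2 fold change 0.53, unadjusted p = 0.0113 by edgeR). Reck, a membrane-anchored inhibitor of several MMPs, was at 102, 98.4 and 109 CPM and at 136, 104 and 146 CPM (log2 fold change 0.32, unadjusted p = 0.0211 by edgeR). Replicate 2 with FGF21 was among the TBHP libraries in Reck and below them in Serpine2. Plau and Plat, which activate plasminogen, and Serpine2, which blocks urokinase, thus all stood highest in replicates 1 and 3.

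Of 20 listed regulators of MMP transcription (AP-1, ETS and others), 18 were tested, 12 with a positive and 6 with a negative log2 fold change (median 0.09). At an unadjusted p under 0.05, 4 of the 18 were higher and none lower, against 4.63% and 4.29% of all genes tested. Fos, a subunit of AP-1, was at 12.8, 13.1 and 15.3 CPM with TBHP and at 25.2, 22.8 and 19.0 CPM with FGF21 added (log2 fold change 0.70, standard error 0.14, unadjusted p = 0.000236, adjusted p = 0.553 in edgeR's quasi-likelihood fit). Fosb, another AP-1 subunit, was at 7.48, 7.12 and 7.08 CPM and at 9.85, 10.1 and 9.54 CPM (log2 fold change 0.44, unadjusted p = 0.00563 by edgeR). In Fos and Fosb, unlike in the proteases, replicate 2 with FGF21 was clearly above every TBHP library.

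Nr4a1, an immediate early nuclear receptor, was at 138, 106 and 132 CPM with TBHP and at 225, 150 and 319 CPM with FGF21 added, also without overlap (log2 fold change 0.89, unadjusted p = 0.00126 by edgeR). Epas1, which encodes HIF-2α, kept the order of the proteases, at 6.98, 6.35 and 7.92 CPM with TBHP and 11.1, 7.32 and 12.5 CPM with FGF21 added (log2 fold change 0.54, unadjusted p = 0.0163 by edgeR). Jun, Fosl1 and Jund, further listed AP-1 genes, and Runx2, a known regulator of Mmp13, were added after their values had been seen. Jun, the usual partner of Fos, had a log2 fold change of 0.23 (95% interval -0.01 to 0.47, unadjusted p = 0.0556 by edgeR). Fosl1 and Jund had log2 fold changes of 0.10 and -0.01 (unadjusted p = 0.389 and 0.916 by edgeR). Their means were 80.2 and 157 CPM with TBHP and 86.0 and 155 CPM with FGF21 added, above the levels of Fos and Fosb. The listed AP-1 genes Fosl2 and Junb had no row. Runx2 was at 0.02 (95% interval -0.20 to 0.25).

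**Figure D5:**
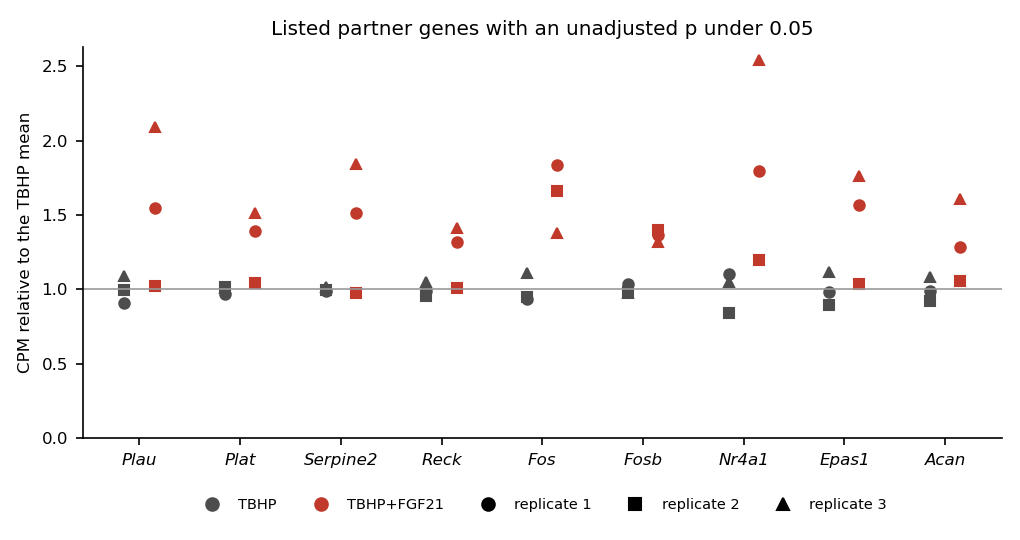
CPM relative to the mean of the TBHP libraries (vertical axis, from 0, with a grey line at 1) for the listed partner genes with an unadjusted p under 0.05, in TBHP libraries (grey) and TBHP+FGF21 libraries (red) with symbols for replicates. The red square of replicate 2 lies near the line in Plau, Serpine2, Reck, Epas1 and Acan and above all grey symbols in Fos, Fosb, Nr4a1 and Plat.

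Among 20 matrix genes that MMPs can cut, all were tested, 12 with a positive and 8 with a negative log2 fold change (median 0.03), and 1 had an unadjusted p under 0.05, a share below the 8.92% of all genes tested. This was Acan, which encodes aggrecan, the main proteoglycan of the nucleus pulposus. Acan was at 2680, 2506 and 2938 CPM with TBHP and at 3475, 2863 and 4353 CPM with FGF21 added, so that replicates 1 and 3 were again the highest (log2 fold change 0.40, unadjusted p = 0.0156, adjusted p = 0.553 in edgeR's quasi-likelihood fit). Markers of cell type were read beside these values. Of 10 nucleus pulposus and notochord markers tested, 5 were at a positive and 5 at a negative log2 fold change. Pax1 and Sox9 were at 0.54 and 0.56 (unadjusted p = 0.00583 and 0.0241 by edgeR), while Krt8 was at -0.43, Cd24 at -0.55 and Car3 at -0.34 (unadjusted p = 0.0516, 0.159 and 0.379). Of 11 annulus and fibroblast markers tested, Pdgfra and Cd34 were at 0.39 and 0.72 (unadjusted p = 0.0199 and 0.00469) and Scx and Postn at -0.39 and -0.43 (unadjusted p = 0.0265 and 0.00728 by edgeR). The summed level of this last list was 43185 to 47735 CPM with TBHP and 32306 to 45393 CPM with FGF21 added, most of it from Col1a1, which alone was at 38251 to 42448 CPM and 27859 to 40100 CPM (unadjusted p = 0.178 by edgeR). The part of cell makeup in the levels of the Mmp and Timp genes was not tested.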

How the data were processed

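RNA-seq of poly-A RNA was measured in 6 libraries of rat NPCs, 3 per group, grouped by title. Per the labels, libraries were made with a directional kit and reads were handled with STAR and featureCounts, and versions, genome build and annotation are not given in the sources used here. The authors deposited per-sample tables of raw read counts per gene identifier (unstranded and for each strand) and a combined table of counts per symbol. The authors deposited no normalized values, and their combined table was handled in the class of estimated counts since 22 of its rows held values that were not whole, which were rounded up. Each strand column held close to the same counts of the Mmp and Timp genes, so antisense reads cannot be told apart. Ambiguous reads (1.72% to 2.09%), multimapping reads (6.27% to 7.02%) and reads outside genes (9.13% to 10.4%) stayed out of library sizes.

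Levels are CPM after TMM scaling, with totals of 18277732 to 22426190 counts, and a count of 0 allows up to 3 counts by counting error only. Groups were compared by edgeR 4.0.16 in R 4.3.3 (filterByExpr with a minimum count of 10 and total of 15, glmQLFit and glmQLFTest, condition only), with Benjamini-Hochberg adjustment over 11426 genes. Intervals are 95%, from the standard error and the test's degrees of freedom. Correlations used log2 CPM with a prior count of 1. Scripts were tested on simulated data. The labels call the samples of a group biological replicates, but do not say whether the cultures came from separate rats, so p-values measure the spread between these libraries. No library repeated another, with a chi-square per gene of 6.94 to 58.4 between any pair.

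The 10 genes and the gene lists were chosen with earlier results of these data known. Of the lists, genes with an unadjusted p under 0.05 were named, or else the highest in CPM. Jun, Fosl1, Jund, Runx2, Mmp9, Cd14, Col2a1, Foxf1 and the genes beside Mmp3 on chromosome 8 were named after their values had been seen. Genes named outside this rule also include Plaur, Krt8, Cd24, Car3, Col1a2, Tbxt, Noto and Shh. Of the 20 nucleus pulposus and notochord markers, 16 had a row and 10 were tested (3 higher at an unadjusted p under 0.05, median log2 fold change -0.01). Of the 12 annulus and fibroblast markers, 11 were tested (2 higher, 2 lower, median 0.06), of the 12 macrophage markers 2 (none, median -0.04), and of the 8 endothelial markers 1 (none, -0.11). Alternatives were other scalings, filters and tables, DESeq2 1.42.0, limma-voom (limma 3.58.1), the replicate number as a block, and leaving out each library.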

Additional observations from a re-analysis of the deposited data

How the results depend on the processing

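Directions of the log2 fold changes held in every alternative for Mmp2, Mmp3, Mmp10, Mmp13, Mmp14, Mmp19, Timp1 and Timp3. Timp2 reversed, to -0.11 with limma-voom, -0.04 without TBHP replicate 1, -0.15 without TBHP replicate 3, -0.78 without TBHP+FGF21 replicate 2 and -0.56 with replicate 1 as the only TBHP+FGF21 library, an alternative chosen after seeing the data. Timp2 was not tested with a filter of 1 CPM or with the strand columns, where it did not pass. Outside the fits that left out libraries, Mmp3 lay between 0.87 and 1.04, Mmp13 between 0.49 and 0.65, and Timp3 between -0.65 and -0.41. Without 1 library at a time, Mmp3 lay between 0.59 and 1.32, Mmp10 between 0.48 and 1.20, Timp3 between -0.74 and -0.29 and Timp2 between -0.78 and 0.53.

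Genes with an adjusted p under 0.05 numbered 4 with DESeq2's Wald test, 5 without a filter on low counts, 325 with replicate 1 as the only TBHP+FGF21 library, and 0 with limma-voom or the per-sample tables (unstranded, strand columns 3 and 4). At an unadjusted p under 0.05, these 4 fits had 996, 1082, 955 and 1049 genes, and the fit with replicate 1 alone had 1669. Leaving out 1 library at a time gave 0 to 867 genes by adjusted p and 337 to 2732 by unadjusted p. Of the Mmp and Timp genes, 6 had an unadjusted p under 0.05 with edgeR, 3 with limma-voom, and 1 to 6 without 1 library. The cause of these shifts was not tested.

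Whether replicate numbers pair the libraries could not be decided, because deviations from the mean of so few libraries depend on each other. Across genes, deviations of same-numbered libraries correlated at -0.12, 0.20 and 0.14 for replicates 1, 2 and 3, and not every library correlated best with its own number. With the replicate block, 2 genes had an adjusted and 1599 an unadjusted p under 0.05, against 1 and 1019 without it. Of the 1599, 6 were Mmp and Timp genes. Mmp3 was at 0.89 with the block (adjusted p = 0.103 by edgeR), with a standard error of 0.21 against 0.28 without it.

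At this depth, the counts of Timp2, Mmp9 and Mmp11 leave wide intervals or no test. The 3 libraries per group, unclear ligand labels and unlike replicates limit all comparisons.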

Other observations

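The profile genes of Mmp10 and Mmp13 hold further values. Bcl2l11, which encodes the pro-apoptotic protein BIM, had a log2 fold change of 0.55 (unadjusted p = 0.0139 in edgeR's quasi-likelihood fit) and Fads2, a fatty acid desaturase, of 0.41 (unadjusted p = 0.00882). Lama5, a laminin chain of basement membranes, was at 0.55 (unadjusted p = 0.0205) and Tgfbr3, a co-receptor of TGF-β, at 0.38 (unadjusted p = 0.0286 by edgeR). Maea, Sh3bp2 and Ap2m1, also matched to Mmp13, were at 0.09, 0.23 and 0.09 (unadjusted p = 0.348, 0.0898 and 0.333 by edgeR). These genes were picked for their likeness over the 6 libraries, so that their differences are a description.

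Plaur, the urokinase receptor, went the other way from Plau, with 83.0, 78.2 and 78.4 CPM in the TBHP libraries and 55.2, 82.0 and 65.2 CPM in the TBHP+FGF21 libraries (log2 fold change -0.24, unadjusted p = 0.0811 by edgeR). Replicates 1 and 3 with FGF21 were below every TBHP library in Plaur and replicate 2 was among them.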
